A study of Homo sapiens with 12 samples.

Results

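The genes described here are 9 genes of MHC class I antigen presentation, taken by name from a table of 57134 genes measured in 12 total RNA libraries. They are the heavy chain genes HLA-B, HLA-C and HLA-E, the light chain gene B2M, the peptide transporter genes TAP1 and TAP2, and the loading genes TAPBP, CALR and PDIA3. All libraries were made from the line HCT116, grown out of a human colon carcinoma, by MATQ-seq, which amplifies total RNA from few or single cells. The libraries compared were 2 DASHed mini-bulk with 2 untreated mini-bulk libraries, and 4 DASHed with 4 untreated libraries of single cells sorted by FACS. DASHed libraries had gone through scDASH, a step that uses Cas9 to cut copies of ribosomal RNA (rRNA), and untreated libraries had not. The study asked how well this step removes rRNA, so a change in a gene below is a difference between 2 ways of making a library from the same line, and the labels name no stimulus of the pathway. The sources used here name no separate cultures and do not give the number of cells in a mini-bulk library, so p-values measure the spread between these libraries, which may be technical.

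MHC class I molecules show peptides from inside the cell to T cells and natural killer cells. A heavy chain pairs with the light chain β2-microglobulin in the endoplasmic reticulum. The TAP1 and TAP2 proteins form a pump that brings peptides in, and tapasin (TAPBP), calreticulin (CALR) and the disulfide isomerase ERp57 (PDIA3) help the pair to bind one. HLA-B and HLA-C are classical heavy chains, and HLA-E presents mainly leader peptides of other class I chains to natural killer cell receptors. Interferons raise much of the pathway, and calreticulin and ERp57 also fold many other glycoproteins.

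Libraries differed in depth and in rRNA. Estimated counts summed to between 837614 and 1087711 in DASHed mini-bulk libraries and between 5803180 and 6026584 in untreated mini-bulk libraries. They summed to between 1018874 and 1573651 in DASHed cells and between 5545355 and 6008358 in untreated cells. Ribosomal sequence took 38.02 to 42.71% of the counts in DASHed mini-bulk and 82.15 to 85.81% in untreated mini-bulk libraries, and 29.87 to 38.43% in DASHed cells and 72.85 to 81.29% in untreated cells. Levels are therefore given as CPM outside rRNA, which are CPM on a total that leaves out ribosomal counts. The 9 genes together held 684 to 969 counts in DASHed mini-bulk, 1034 to 1105 in untreated mini-bulk, 773.2 to 1822 in DASHed cells and 1506 to 2029 in untreated cells. A count of 3, used as the floor for a gene with no counts, stands for 4.814 to 5.779 CPM outside rRNA in DASHed mini-bulk, 2.897 to 3.509 in untreated mini-bulk, 2.802 to 4.198 in DASHed cells and 1.993 to 2.785 in untreated cells. Of 8 markers of colon epithelium 7 were seen, VIL1 with at most 1 count in a library. Their summed level was 1120 to 6040 CPM outside rRNA, with CDX1 at 0. In mini-bulk edgeR called KRT8, KRT18 and KRT19 higher and EPCAM lower with depletion; none of the 4 was called with GC correction, and DESeq2 did not call EPCAM. Of 7 leukocyte markers 3 were seen, among them CD68 with 24 counts in DASHed cell 3 and 17 in untreated cell 3. CD3E, CD14, LYZ and NKG7 were at 0 in all libraries, and the list summed to at most 31.5. Of 5 fibroblast markers 4 were seen, among them COL1A1 with up to 29 counts in a library, and of 3 endothelial markers 2. The fibroblast list summed to at most 59.6 with LUM at 0, the endothelial list to at most 10 with VWF at 0, and all 3 red cell markers were at 0.

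DASHed and untreated cells with the same number deviated together from their group means. The deviations of same-numbered cells correlated at 0.91 to 0.92 over 9356 genes, and those of different numbers at −0.37 to −0.23, where centring on group means by itself makes the second kind negative. The labels do not say what the number marks, and whether same-numbered libraries hold material of 1 cell was not tested. A DASHed and an untreated cell of the same number are therefore set side by side below.

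The class I heavy chains are near copies of each other, and the counts of one depend on how reads were shared with the others. The coding sequences of HLA-B and HLA-C (GENCODE v29) were 92.45% identical, and HLA-E was 86.85% identical to HLA-B and 86.41% to HLA-C. The stretch of 90 coding bases below shows how little can separate them; it starts at coding base 638 of HLA-B and HLA-C and at base 629 of HLA-E, and capitals mark bases that differ from HLA-B. These are reference sequences, and the alleles of HCT116 were not analysed here.
HLA-B: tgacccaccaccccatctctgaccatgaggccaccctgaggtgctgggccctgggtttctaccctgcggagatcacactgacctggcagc
HLA-C: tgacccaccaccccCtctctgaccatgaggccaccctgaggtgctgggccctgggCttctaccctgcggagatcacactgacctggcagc
HLA-E: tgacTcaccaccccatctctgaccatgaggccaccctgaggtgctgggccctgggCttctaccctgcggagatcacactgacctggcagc
HLA-C and HLA-E each differed from HLA-B at 2 of these 90 bases. Of all 31-base words in the exons of a gene, 25.5% in HLA-B, 17% in HLA-C and 11.8% in HLA-E also occur in another gene. The values of single heavy chains are uncertain for this reason, and their sum less so.

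The 9 genes lie at 3 places in the genome (GRCh38, GENCODE v29). HLA-E (chr6:30489467-30494205, plus strand), HLA-C (chr6:31268749-31272130, minus), HLA-B (chr6:31269491-31357188, minus, whose annotated span reaches into HLA-C), TAP2 (chr6:32821833-32838780, minus), TAP1 (chr6:32845209-32853978, minus) and TAPBP (chr6:33299694-33314387, minus) are in the MHC region. PDIA3 (chr15:43746392-43773279, plus) and B2M (chr15:44711487-44718877, plus) are on chromosome 15, and CALR (chr19:12938578-12944489, plus) is on chromosome 19. HLA-B, TAP2 and PDIA3 are also uncertain through exons shared with other genes. TAP2 shares 32.3% of its exonic bases with AL669918.1 on the same strand, which had 0 counts in all 12 libraries. PDIA3 shares 18.9% with genes on the opposite strand, mainly ELL3 and AC018512.1, and 36.8% of its 31-base words occur elsewhere, chiefly in the pseudogene PDIA3P1, which held 0 to 3.2 counts. ELL3 held 0 to 9.0 counts in mini-bulk libraries, but 50 counts in DASHed cell 1, against 77 in untreated cell 1, where PDIA3 held 83 counts in the DASHed and 306 in the untreated cell; in the other cells ELL3 held 0 to 23.3. HLA-B shares 18.9%, mostly with the pseudogene AL671883.2 on the opposite strand.

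The members also differ widely in base composition, which the choice of genes did not use. The median GC content of a gene's transcripts was 40.5% for B2M and 45.4% for PDIA3. It was 54.1% for TAP1, 55.3% for CALR, 55.5% for TAP2, 59.5% for HLA-B, 61.4% for HLA-C, 63.1% for TAPBP and 64.7% for HLA-E, against a median of 51.4% over the genes tested. The windows of 100 coding bases below show the lowest GC content within B2M and PDIA3 and the highest within HLA-C and TAPBP, the 4 genes whose levels changed in mini-bulk; capitals mark G and C.
B2M: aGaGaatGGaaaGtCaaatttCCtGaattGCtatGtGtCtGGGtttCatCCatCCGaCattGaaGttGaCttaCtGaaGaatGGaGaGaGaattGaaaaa
PDIA3: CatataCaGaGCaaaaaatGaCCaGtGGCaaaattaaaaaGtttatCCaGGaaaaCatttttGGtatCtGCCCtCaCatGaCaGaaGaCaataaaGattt
HLA-C: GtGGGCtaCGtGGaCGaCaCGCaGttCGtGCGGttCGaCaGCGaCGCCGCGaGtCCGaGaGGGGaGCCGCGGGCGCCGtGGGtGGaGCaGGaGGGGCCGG
TAPBP: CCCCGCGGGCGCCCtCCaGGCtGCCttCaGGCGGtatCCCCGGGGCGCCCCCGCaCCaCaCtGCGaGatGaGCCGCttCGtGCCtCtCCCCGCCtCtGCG
GC content was 37% in the B2M window (coding bases 105 to 204), 33% in the PDIA3 window (662 to 761), 74% in the HLA-C window (145 to 244) and 76% in the TAPBP window (210 to 309).

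In mini-bulk input the light chain gene B2M and the loading gene PDIA3 fell with depletion, and the heavy chain gene HLA-C and the tapasin gene TAPBP rose. The other 5 genes did not pass the edgeR test, though CALR passed by DESeq2. With a replicate block, a term for the library number, CALR and HLA-E also passed in edgeR. What that number marks is not stated in the labels. The plot of levels by library shows the 9 genes in all 4 groups.

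**Figure D1:**
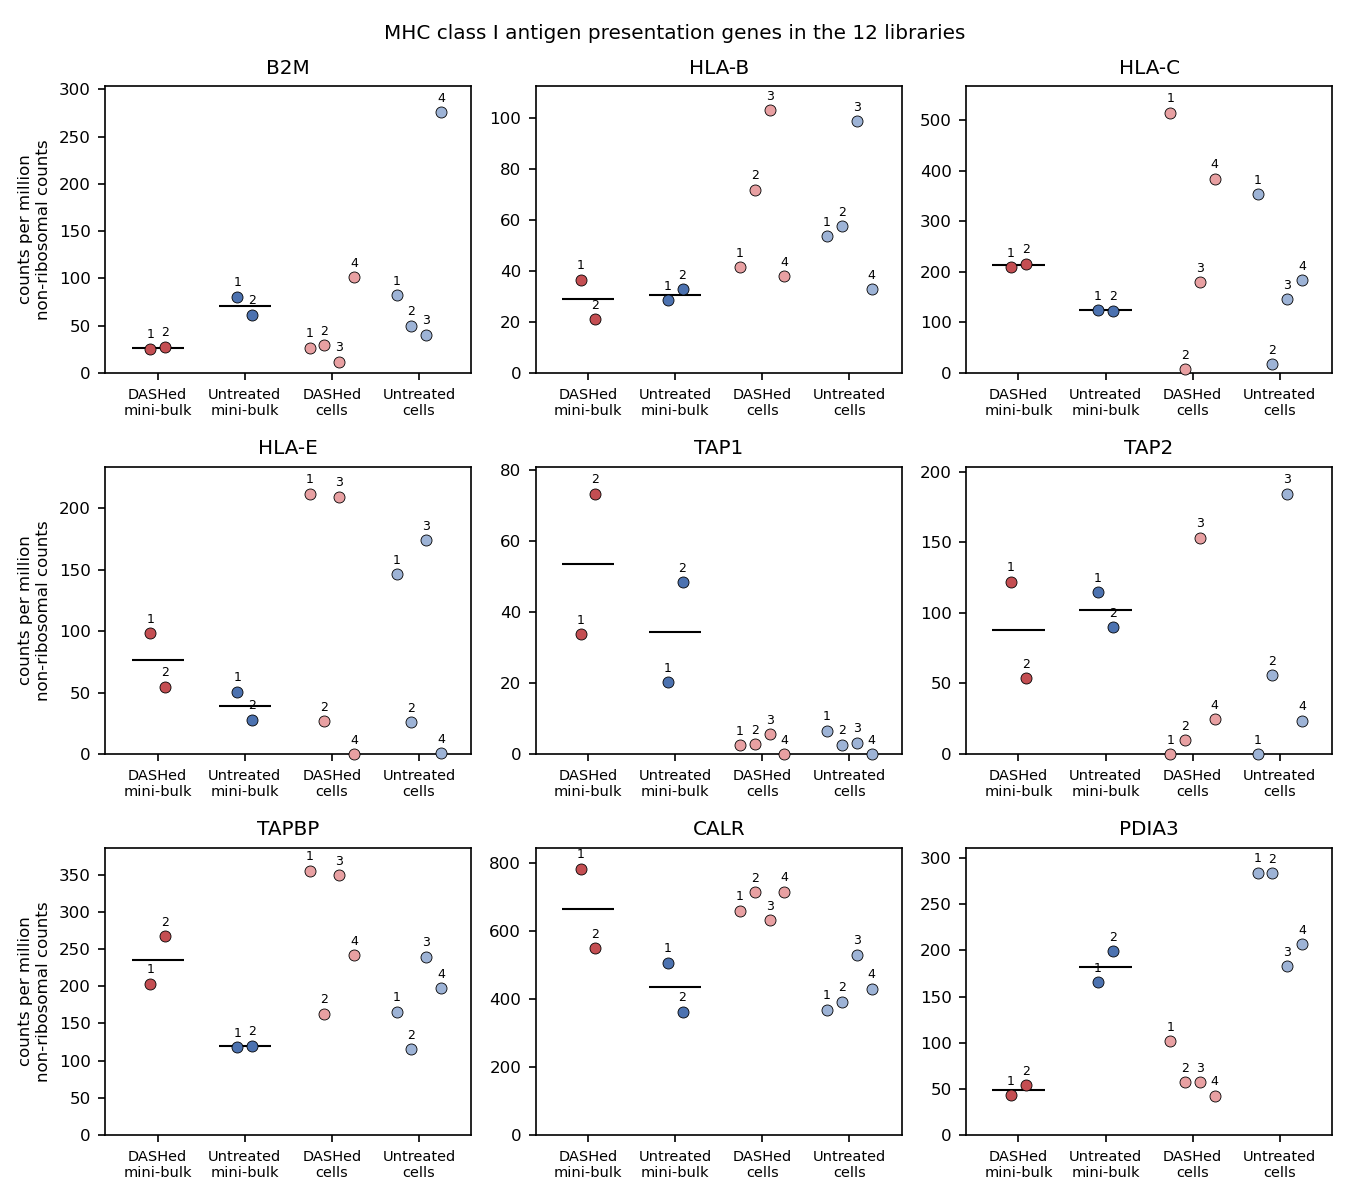
Level of each of the 9 genes in every library, in CPM outside rRNA (CPM on a total without ribosomal counts), with 1 numbered point per library, a line at the mean of each mini-bulk group, and DASHed groups left of their untreated groups. B2M and PDIA3 lie lower in both DASHed mini-bulk libraries than in both untreated ones, and TAP1 lies lower in all single cells than in the mini-bulk libraries of the same treatment.

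Among the heavy chains, HLA-C had 208.9 and 216.3 CPM outside rRNA in DASHed mini-bulk libraries, against 124.7 and 123.3 in untreated ones. The groups did not overlap, with means of 212.6 ± 5.25 in DASHed and 124 ± 1.03 in untreated libraries (SD, n = 2 each). The log2 fold change on the edgeR scale was 0.66 (SE 0.20), and the edgeR quasi-likelihood test gave an adjusted p of 0.0386. HLA-E had 98.4 and 54.6 in DASHed libraries, against 50.7 and 27.9 in untreated ones. Both DASHed libraries lay above both untreated ones by a small margin, but the spread within each group was wide. The log2 fold change of 0.86 (SE 0.43) did not pass (edgeR adjusted p = 0.157). Library 1 was the higher in both groups, and with a replicate block HLA-E was called (log2 fold change 0.84, edgeR adjusted p = 0.014). HLA-B had 36.5 and 21.2 in DASHed libraries, against 28.4 and 32.9 in untreated ones. Its groups overlapped, with a log2 fold change of −0.17 (SE 0.47, edgeR adjusted p = 0.797).

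B2M, the partner of all of these heavy chains, had 25.7 and 28 CPM outside rRNA in DASHed mini-bulk libraries, against 80.7 and 61.8 in untreated ones. The DASHed libraries lay below both untreated libraries, with means of 26.9 ± 1.67 in DASHed and 71.3 ± 13.4 in untreated libraries (SD, n = 2 each). B2M fell 2.82-fold, with a log2 fold change of −1.49 (SE 0.38, edgeR adjusted p = 0.0184).

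Neither gene of the peptide pump passed the test. TAP1 had 33.7 and 73.2 CPM outside rRNA in DASHed mini-bulk libraries, against 20.2 and 48.3 in untreated ones. The libraries within a group differed more than the groups did, with library 2 the higher in both groups. With a replicate block TAP1 was not called either (log2 fold change 0.54, edgeR adjusted p = 0.169). In the main fit the log2 fold change of TAP1 was 0.50 (SE 0.54, edgeR adjusted p = 0.493). TAP2 had 122.0 and 53.9 in DASHed libraries, against 114.6 and 89.8 in untreated ones. The DASHed libraries lay on both sides of the untreated ones, and the log2 fold change was −0.31 (SE 0.37, edgeR adjusted p = 0.527).

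The 3 loading genes went different ways. TAPBP, which encodes the tapasin bridge between the pump and the heavy chain, had 203.5 and 267.3 CPM outside rRNA in DASHed mini-bulk libraries, against 118.1 and 120.2 in untreated ones. It rose 1.83-fold with no overlap of the groups, with means of 235.4 ± 45.2 in DASHed and 119.2 ± 1.46 in untreated libraries (SD, n = 2 each) and a log2 fold change of 0.87 (SE 0.22, edgeR adjusted p = 0.0191). CALR had 783.1 and 549.0 in DASHed libraries, against 506.8 and 363.0 in untreated ones. Both DASHed values were above both untreated ones, but the log2 fold change of 0.50 (SE 0.22) did not pass (edgeR adjusted p = 0.109). CALR was called higher by DESeq2 (log2 fold change 0.66, adjusted p = 0.0393) and by edgeR with no filter on low counts (adjusted p = 0.0348). It was also called with a replicate block (log2 fold change 0.50, edgeR adjusted p = 3.51e-06).
PDIA3, the partner of tapasin, had 43.1 and 53.9 in DASHed libraries, against 165.6 and 199.3 in untreated ones. This was the largest change among the 9 genes, a 4.08-fold fall with a log2 fold change of −2.03 (SE 0.27, edgeR adjusted p = 0.00116) and means of 48.5 ± 7.65 in DASHed and 182.5 ± 23.9 in untreated libraries (SD, n = 2 each).

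All 9 genes passed the filter on low counts, and 2 were called higher and 2 lower. Over the 10083 genes tested, 9.9% were called higher and 19.8% lower, and the median log2 fold change was 0.50 for the 9 genes and 0.03 for all genes tested. On the scale of CPM outside rRNA, both DASHed libraries lay above both untreated ones for 4 members (HLA-C, HLA-E, TAPBP and CALR) and below them for 2 (B2M and PDIA3), against 30.3% and 38.6% of 11519 genes. Directions are relative to the typical gene. Scaled to total counts, ribosomal ones included, 7 members were called higher and 0 lower by edgeR, against 6718 and 138 of all 10083 genes tested. The median of all genes moved to 2.04 on that scale, and B2M turned to 0.54. At an unadjusted p under 0.05 the same scaling gave 7 members higher and 0 lower. With 2 libraries a group, leaving 1 out makes a group of 1, so a call can also end because fewer libraries remain. The call of HLA-C ended without untreated mini-bulk library 1, untreated library 2 or DASHed library 2 (edgeR adjusted p = 0.382, 0.493 and 0.0546), by DESeq2 (adjusted p = 0.07) and by edgeR with no filter (0.0558), and that of TAPBP without untreated library 1 or 2 (0.179 and 0.221). The call of B2M ended without DASHed library 1 or untreated library 1 (0.0556 and 0.0832) and by DESeq2 (0.116), while PDIA3 stayed called without any one of the 4 libraries.

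The fold changes of the 9 genes followed their GC content. By the median of a gene's transcripts, B2M and PDIA3, the 2 genes below 46% GC, were the 2 that fell, and both genes that rose were above 60%. These values depend on the transcript taken. By the longest transcript GC content was 40.6% for B2M, 43.8% for PDIA3, 62.7% for HLA-C, 57.65% for TAPBP and 54.8% for HLA-E. A correlation with the GC content of the longest transcript was not computed. Spearman's rho between GC content and log2 fold change was 0.833 across the 9 genes and 0.789 across 10053 tested genes, as a description over genes that share the same 4 libraries. With a correction for GC content in the edgeR fit, none of the 9 genes was called in either direction, against 1.7% of tested genes called higher and 2.22% lower. At an unadjusted p under 0.05 the corrected fit gave 0 members higher and 1 lower, PDIA3. The log2 fold change of B2M was then 0.16 (SE 0.39, edgeR adjusted p = 0.902), that of HLA-C −0.08 (SE 0.20, 0.913) and that of TAPBP 0.11 (SE 0.21, 0.872). PDIA3 kept a log2 fold change of −1.01 (SE 0.28, edgeR adjusted p = 0.084). Across the 9 genes rho was −0.05 after the correction. The curve is fitted to these same 4 libraries, so it removes any difference between the groups that follows GC content. The low rho and the lost calls follow in part from this, and the cause of the pattern was not tested.

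**Figure D2:**
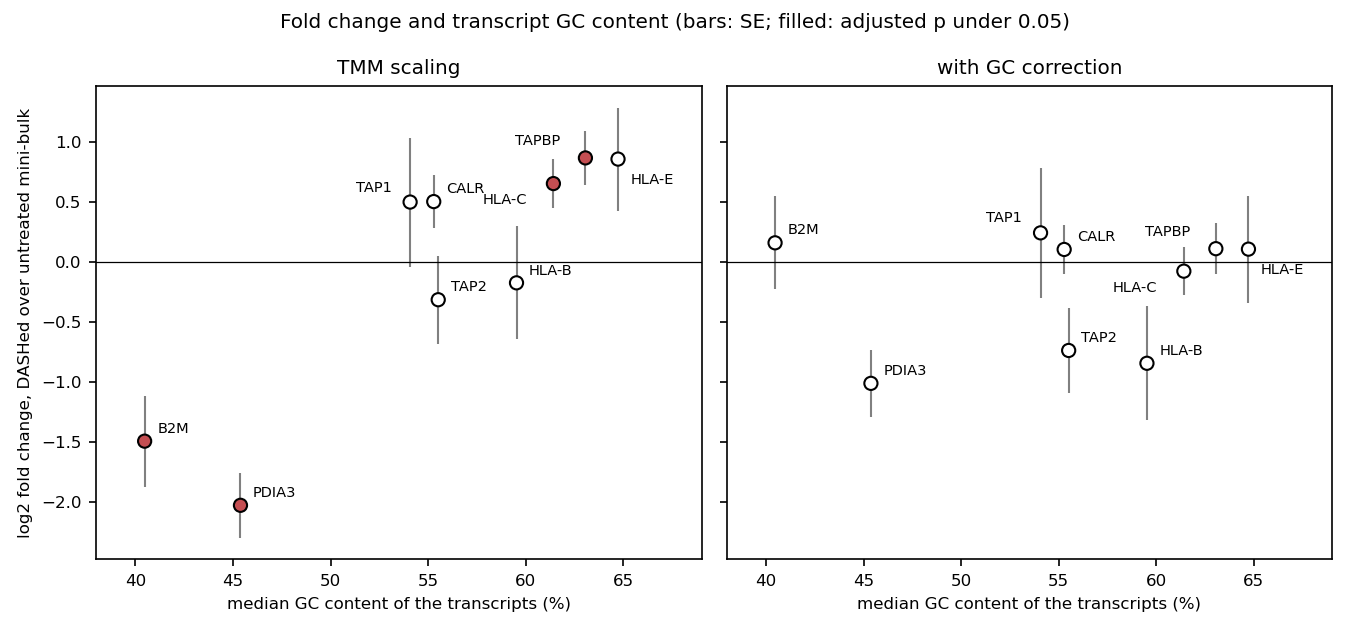
Log2 fold change of the 9 genes (DASHed over untreated mini-bulk; bars show the SE) against the median GC content of their transcripts in percent, in the edgeR fit with TMM scaling (left) and with a GC correction (right). Filled points passed an adjusted p of 0.05: B2M and PDIA3 at low GC content and HLA-C and TAPBP at high GC content on the left, and none on the right.

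Ratios of 2 genes within a library do not depend on how libraries are scaled. There were 0.0747 and 0.0960 B2M counts per count of HLA-B, HLA-C and HLA-E together in DASHed mini-bulk libraries, against 0.396 and 0.336 in untreated ones. The mean was 0.0854 ± 0.0151 in DASHed and 0.366 ± 0.0427 in untreated libraries (SD, n = 2 each), a ratio of 0.233. There were 18.2 and 10.2 CALR counts per PDIA3 count in DASHed libraries, against 3.06 and 1.82 in untreated ones. Each ratio sets a gene of low GC content against genes of higher GC content, and the GC-corrected log2 fold changes were 0.16 for B2M, −0.84 for HLA-B, −0.08 for HLA-C and 0.11 for HLA-E. Both ratios were apart between the groups, but with 2 against 2 libraries an exact two-sided permutation test cannot give a p below 0.333. HLA-C made up most of the heavy chain counts in all 4 libraries, with 60.8% and 74.1% in DASHed and 61.2% and 66.9% in untreated mini-bulk libraries. HLA-E made up 28.6% and 18.7% in DASHed and 24.9% and 15.2% in untreated libraries, and HLA-B 10.6% and 7.25% in DASHed and 13.9% and 17.9% in untreated ones. HLA-B thus had a smaller share in both DASHed libraries, while the shares of HLA-C and HLA-E overlapped between the groups.

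Per kilobase of the principal transcript, CALR had the highest level of the 9 genes in mini-bulk, at 350 ± 87.0 CPM outside rRNA per kilobase in DASHed and 229 ± 53.4 in untreated libraries (SD, n = 2 each). In DASHed libraries HLA-C (137 ± 3.38) and TAPBP (125 ± 23.9) followed, with overlapping ranges. HLA-E (29.4 ± 11.9), B2M (28.5 ± 1.77), HLA-B (18.6 ± 6.99), TAP1 (18.1 ± 9.44), TAP2 (15.5 ± 8.47) and PDIA3 (13.0 ± 2.05) came next. The range of HLA-E overlapped those of B2M, HLA-B, TAP1 and TAP2, and the last 4 overlapped each other. In untreated libraries HLA-C (79.8 ± 0.661) and B2M (75.6 ± 14.2) overlapped, followed by TAPBP (63.1 ± 0.772), PDIA3 (49.0 ± 6.41), HLA-B (19.8 ± 2.07), TAP2 (18 ± 3.09), HLA-E (15.1 ± 6.20) and TAP1 (11.6 ± 6.71), of which each of the last 4 overlapped its neighbour. The order depends on the transcript length taken: with the median length of a gene's transcripts, PDIA3 had rank 5 in DASHed and rank 2 in untreated libraries.

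Single cells are given as values, with no test, because each library is 1 cell and a group counts as 1 sample. In CPM outside rRNA, B2M and PDIA3 were lower in all 4 DASHed cells than in the untreated cell of the same number, and TAPBP and CALR were higher in all 4. Over 9530 genes with at least 20 counts in each group, 20.8% were lower and 15.9% higher in all 4 on that scale. These patterns depend on the scale. Relative to the median gene of each pair, in CPM of total counts with 1 added, B2M was higher in pair 2 (log2 ratio 0.57). On that scale PDIA3 was lower in all 4, and HLA-B, HLA-C, TAPBP and CALR were higher in all 4. The share of all genes on that scale was not computed.

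B2M had 27.0, 29.4, 12.1 and 101.6 CPM outside rRNA in DASHed cells 1 to 4, against 82.2, 49.8, 40.4 and 275.9 in untreated cells 1 to 4. Cell 4 was the highest and cell 3 the lowest in both groups. Summed counts were 159 in DASHed and 554.5 in untreated cells, which relative to the median gene is a ratio of 0.461, with an exact 95% interval of 0.384 to 0.551 that, like all intervals here, covers counting error only. The median gene had a ratio of 2.62 in CPM of total counts over 13469 genes, so on that unadjusted scale B2M was higher in DASHed cells, with a ratio of 1.21. Cell 4 held 103 of the 159 DASHed and 339.8 of the 554.5 untreated counts. As a log2 value with 1 CPM added, the relative ratio was −0.87. It was −1.72 without DASHed cell 4 alone and −0.07 without untreated cell 4 alone. Each of these keeps the other library of that number, and the ratio without both was not computed.

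Among the heavy chains HLA-C and HLA-E varied widely between cells. HLA-C had 515.1, 7.6, 179.3 and 384.5 CPM outside rRNA in DASHed cells 1 to 4, against 354.1, 17.5, 146.2 and 184.0 in untreated cells. Cell 1 was highest and cell 2 lowest in both groups, and cell 2 rested on 5.4 counts in the DASHed and 26.4 in the untreated library. Relative to the median gene the summed ratio was 1.97 (exact 95% interval 1.80 to 2.17).
HLA-E had 211.9, 26.6, 209.4 and 0 in DASHed cells, against 146.4, 26.1, 173.8 and 0.8 in untreated cells. Cell 4 had 0 counts in the DASHed and 1.0 in the untreated library, and the level in DASHed cell 4 was at least 71.6-fold lower than in DASHed cell 1, with a floor of 3 counts in that library. The summed ratio was 1.60 (exact 95% interval 1.39 to 1.83), and as a log2 value with 1 CPM added it was 0.87. It was 1.48 without DASHed cell 4 alone and 0.38 without untreated cell 4 alone, and without both it was not computed.
HLA-B had 41.4, 71.8, 103.0 and 38 in DASHed cells, against 53.5, 57.5, 98.8 and 32.8 in untreated cells. Its 4 cells stood in the same order in both groups, with cell 3 highest and cell 4 lowest, and its summed ratio was 1.21 (exact 95% interval 1.02 to 1.44).

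The transporter genes were at or near 0 in some cells. TAP1 had 2, 2, 6 and 0 counts in DASHed cells 1 to 4, or 2.4, 2.8, 5.6 and 0 CPM outside rRNA, against 7, 4, 4 and 0 counts in untreated cells, or 6.5, 2.7, 3.2 and 0. These are close to the level of 3 counts. The summed ratio of 1.07 has an exact 95% interval of 0.430 to 2.55, so no difference was detectable at such low counts. TAP2 had 0, 9.8, 153.2 and 24.7 in DASHed cells, against 0, 55.8, 184.5 and 23.6 in untreated cells. Cell 3 was the highest and cell 1 at 0 counts in both groups, at least 41.7-fold lower than cell 3 in DASHed and at least 66.3-fold lower in untreated cells with the floor of 3 counts in each library. The summed ratio of TAP2 was 0.907 (exact 95% interval 0.757 to 1.08). Cell 3 held 164 of the 196 DASHed and 234 of the 347 untreated counts. As a log2 value with 1 CPM added the ratio was 0.06. It was −1.80 without DASHed cell 3 alone and 1.10 without untreated cell 3 alone, and without both it was not computed.

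The loading genes were seen in all 8 single-cell libraries. TAPBP had 355.6, 163.1, 349.6 and 241.5 CPM outside rRNA in DASHed cells 1 to 4, against 166.0, 115.4, 239.6 and 197.7 in untreated cells, and its summed ratio relative to the median gene was 1.83 (exact 95% interval 1.67 to 2.003). CALR had 660.2, 713.7, 632.2 and 716.2 in DASHed cells, against 368.5, 391.9, 530.7 and 430.3 in untreated cells. All 4 DASHed cells lay above all 4 untreated cells, and the ratio was 1.797 (exact 95% interval 1.70 to 1.91). CALR was the most even of the 9 genes: its highest cell stood 1.13-fold above its lowest among DASHed and 1.44-fold among untreated cells.
PDIA3 had 101.7, 57.4, 57.0 and 42.4 in DASHed cells, against 284.0, 283.5, 182.9 and 206.7 in untreated cells. All DASHed cells lay below all untreated cells, and the ratio was 0.3002 (exact 95% interval 0.260 to 0.346). The share of all genes with groups fully apart, as for CALR and PDIA3, was not computed.
With 1 CPM added to both groups, where the median gene had a ratio of 2.20, 3 members were past a relative log2 ratio of 1 above (HLA-C, TAPBP and CALR) and 1 below (PDIA3), against 12.6% and 23.7% of 13469 genes, and the median log2 ratio of the 9 genes was 0.46. These counts depend on the scale. With no pseudocount, or against genes of like expression, 0 members were above and 2 below (B2M and PDIA3). As a mean over same-numbered pairs, 4 were above (HLA-B, HLA-C, TAPBP and CALR) and 0 below. Leaving out 1 cell at a time and keeping its same-numbered partner, the number above ran from 1 without untreated cell 2 to 5 without untreated cell 3. The number below was 2 without DASHed cell 3 or 4 or untreated cell 1, 2 or 3, and otherwise 1. The shares of all genes under these other settings were not computed, so these counts cannot be set against genes at large. Spearman's rho between GC content and the log2 ratio was 0.783 over the 9 genes and 0.697 over 13435 genes, as a description; the part of GC content in the single-cell values was not tested.

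**Figure D3:**
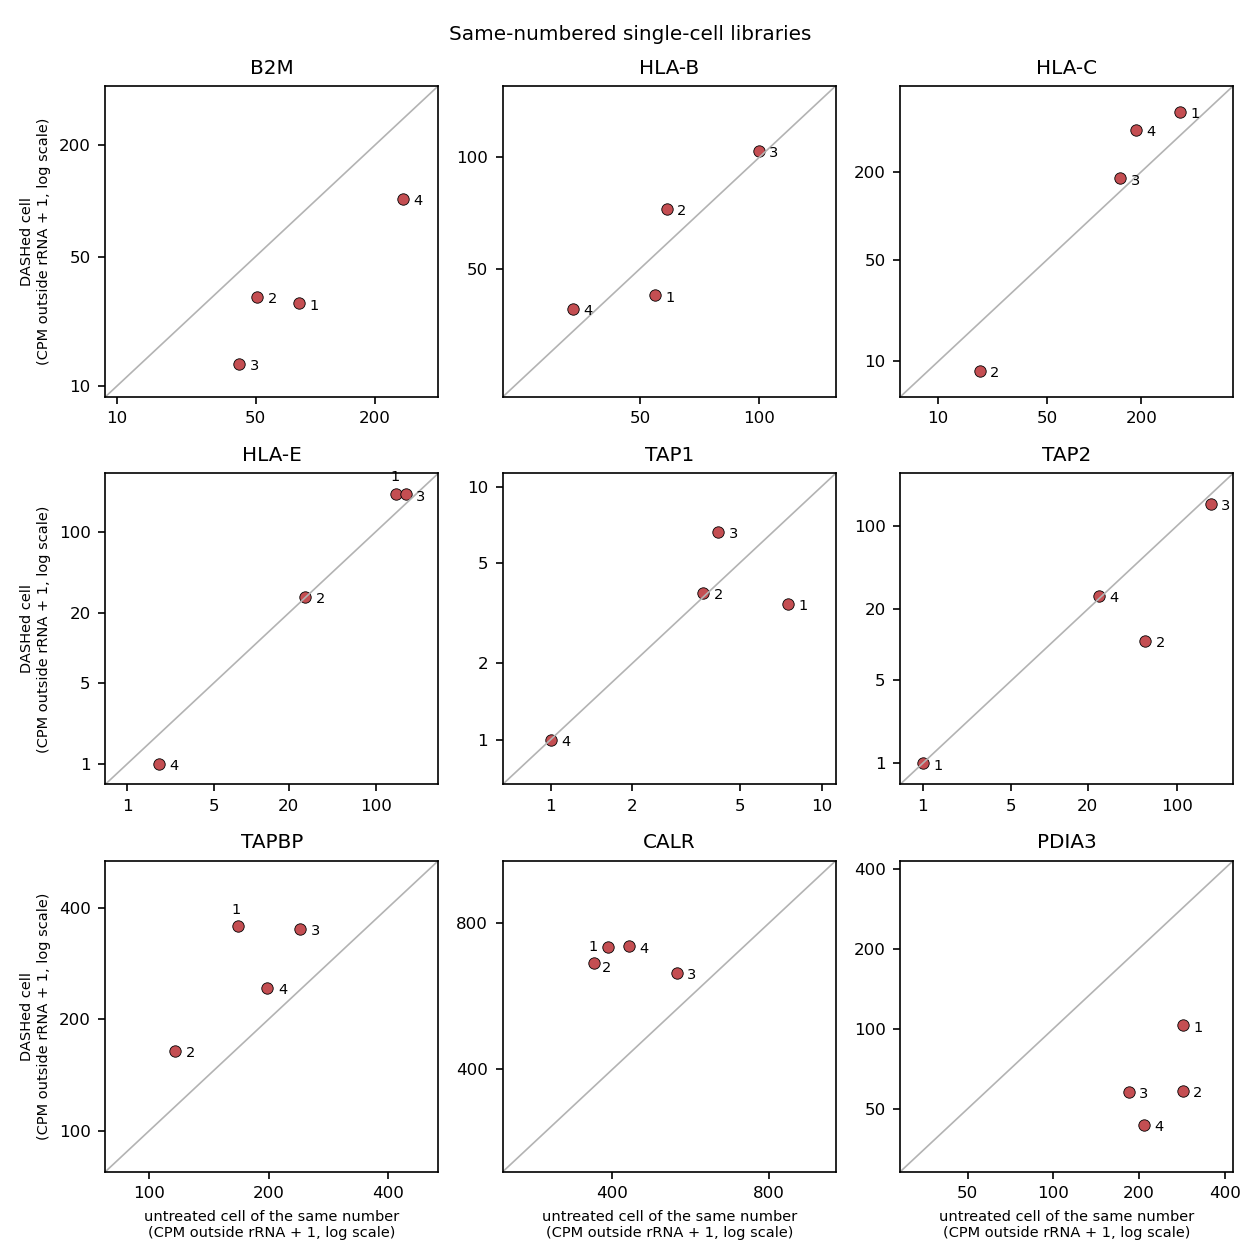
Level of each gene in the 4 DASHed single cells (vertical axis) against the untreated cell of the same number (horizontal axis), as CPM outside rRNA plus 1 on log axes; numbers name the cell and the grey line marks equal levels. B2M and PDIA3 lie below the line in all 4 cells and TAPBP and CALR above it, while HLA-C, HLA-E and TAP2 spread along it by cell number.

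The order of the 4 cells was compared between DASHed and untreated cells for each gene. Of the 9 genes, 8 had at least 20 counts in each group (TAP1 did not). The 4 cells stood in the same order in both groups for 2 of these 8 (HLA-B and HLA-C), the same cell was highest for 5 (B2M, HLA-B, HLA-C, TAP2 and PDIA3), and the same cell was lowest for 6. Over 9530 genes the same order was found for 49.1%, the same highest cell for 82.1% and the same lowest cell for 78.1%, so the members gave no higher shares than genes at large. CALR, the most even gene, had cell 4 highest and cell 3 lowest among DASHed cells but cell 3 highest and cell 1 lowest among untreated cells.

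The make-up of the heavy chain pool went with the cell number. HLA-B made up 67.7% of the HLA-B, HLA-C and HLA-E counts in DASHed cell 2 and 56.9% in untreated cell 2, but 5.39% in DASHed cell 1 and 9.66% in untreated cell 1. HLA-C made up 91.0% in DASHed cell 4 and 84.6% in untreated cell 4, where HLA-E made up 0% and 0.373%. In cell 3 HLA-E was the largest of the 3 at 42.6% in the DASHed and 41.5% in the untreated library. These pools held 75.7 to 627.3 counts in DASHed and 152.2 to 596.8 in untreated cells.
B2M counts per heavy chain count were 0.0351, 0.277, 0.0247 and 0.241 in DASHed cells 1 to 4, against 0.148, 0.493, 0.0964 and 1.27 in untreated cells, and each DASHed cell was below its untreated counterpart. The ratio of the means was 0.288, and 0.588 without untreated cell 4, with DASHed cell 4 kept. CALR counts per PDIA3 count were 6.49, 12.4, 11.1 and 16.9 in DASHed cells, against 1.30, 1.38, 2.90 and 2.08 in untreated cells, with no overlap.

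**Figure D4:**
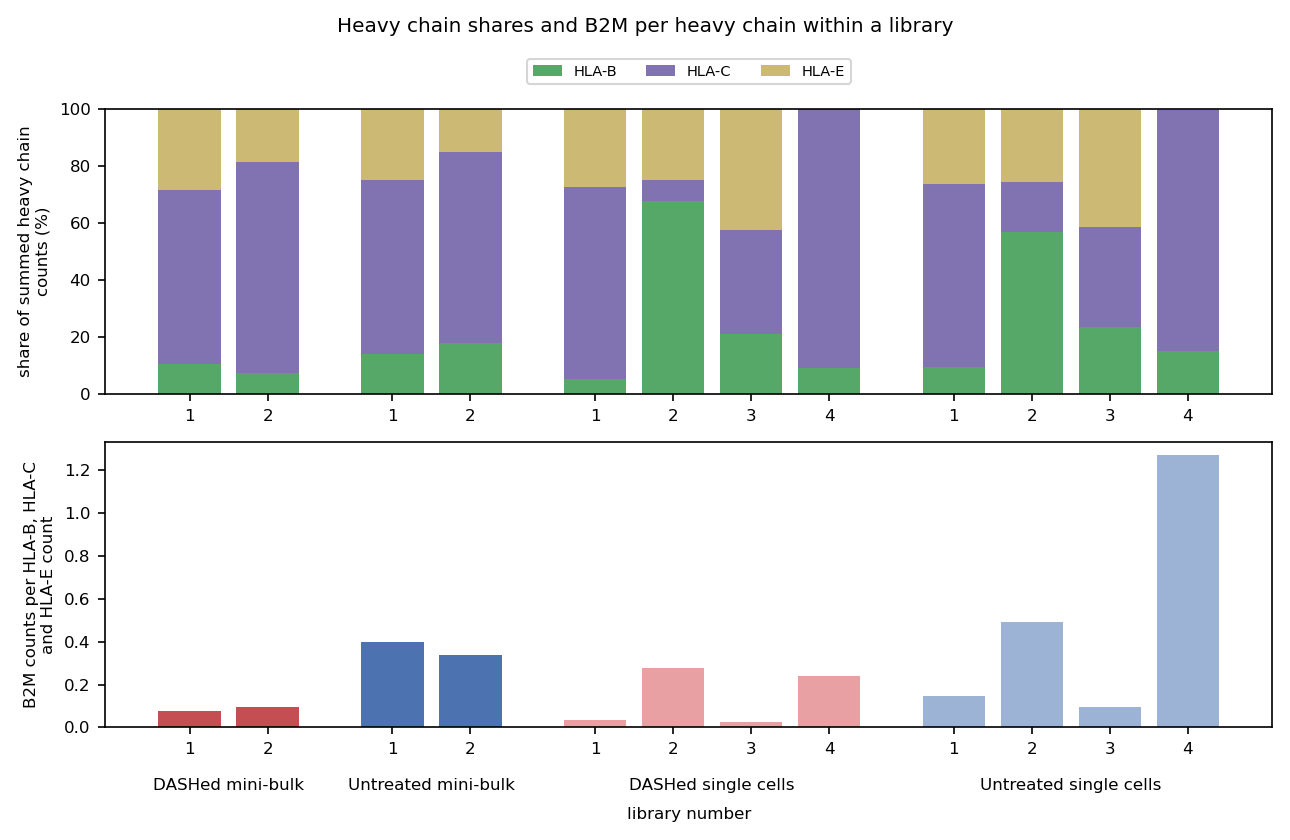
Upper panel: share of HLA-B, HLA-C and HLA-E in their summed counts, in percent, for each library. Lower panel: B2M counts per count of these 3 genes, with each DASHed group left of its untreated group; cell 2 is mostly HLA-B and cell 4 mostly HLA-C in both groups, and B2M per heavy chain is lower in every DASHed library than in the untreated one of the same number.

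TAP1 was the one member lower in every cell than in every mini-bulk library of the same treatment. It had 0 to 5.6 CPM outside rRNA in DASHed cells, against 33.7 and 73.2 in DASHed mini-bulk, and 0 to 6.5 in untreated cells, against 20.2 and 48.3 in untreated mini-bulk libraries. All cells lay below mini-bulk for 11.3% of 10987 genes in DASHed and for 13.6% of 14080 genes in untreated libraries. HLA-B was above mini-bulk in all 4 DASHed cells, as were 2.54% of genes. No member was above mini-bulk in all 4 untreated cells, against 2.95% of genes. Fewer cells with a transcript and less of it per cell cannot be told apart in mini-bulk input.

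Other genes of the pathway and its neighbours were taken from lists. Of 8 other loading and trimming genes 5 were tested, and edgeR called 0 higher and 3 lower, the same numbers as at an unadjusted p under 0.05, with a median log2 fold change of −0.84. DESeq2 called 0 higher and 1 lower, CANX. CANX, which encodes the lectin chaperone calnexin of newly made heavy chains, fell, with a log2 fold change of −1.84 (SE 0.16, edgeR adjusted p = 0.00012) and a GC content of 46.6%. It also fell with GC correction (log2 fold change −1.02, edgeR adjusted p = 0.00487). UGGT1, a folding sensor that adds glucose back to misfolded glycoproteins, fell, with a log2 fold change of −0.84 (edgeR adjusted p = 0.0323), and SEC61A1, the channel through which new chains enter the endoplasmic reticulum, had 0.23 (0.275). The third call was LNPEP, an aminopeptidase, at −1.73 (0.0383); neither UGGT1 (0.33, 0.558) nor LNPEP (0.10, 0.961) was called with GC correction.
Of 8 chaperones of the endoplasmic reticulum all were tested, 2 higher and 1 lower, with a median of 0.08. P4HB, a disulfide isomerase related to PDIA3, rose (log2 fold change 0.98, edgeR adjusted p = 0.00198), as did HYOU1 (0.69, 0.0359), and HSP90B1 fell (−1.64, 0.000165). With GC correction none of the 3 was called (adjusted p = 0.158, 0.619 and 0.54).

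Of 6 genes of the immunoproteasome and its activators 3 were tested, and edgeR called 0 higher and 1 lower, as did DESeq2 and an unadjusted p under 0.05, with a median of 0.21. PSME3, a proteasome activator of the nucleus, fell (log2 fold change −1.39, edgeR adjusted p = 0.00212; −1.15 and 0.00856 with GC correction). PSME2 had 0.21 (adjusted p = 0.772) and PSMB10 had 0.96 (0.371), and PSMB8, an interferon-induced catalytic subunit, had 0 counts in all 12 libraries. Of 19 regulators of class I transcription and interferon signalling 10 were tested, and edgeR and DESeq2 each called 1 higher and 0 lower (2 and 0 at an unadjusted p under 0.05), with a median of 0.06. TYK2, a kinase of interferon receptors, rose (log2 fold change 1.03, edgeR adjusted p = 0.0157), but was not called with GC correction (0.32, 0.593). STAT2 had 0.41 (0.4) and NFYC had 0.58 (0.134). NLRC5, the transactivator of class I genes, averaged 2.38 counts per library and was not tested.
Of 12 class II genes 2 were tested, and 0 were called by edgeR or DESeq2, also at an unadjusted p under 0.05, with a median of −0.61. HLA-DRA, HLA-DRB1 and HLA-DMB had 0 counts in all libraries, and the list summed to 6.18 to 58.1 CPM outside rRNA over the 12 libraries, against 1000.1 to 1915.2 for the 9 class I genes.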

How the data were processed

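The values are estimated counts of each gene in each library, unscaled, as deposited in 1 table. The submitters' processing notes name kallisto 0.46.2; genome build, annotation, use of strand and transcript summing are not stated in the sources used here. Of the nonzero values of a library 31.07 to 55.89% are fractional, and all were rounded to whole numbers for the tests.

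The 9 members and all gene lists were chosen with earlier results of these data known. Named genes are all members and, from each list, the 3 of highest mean count, of which 1 gene is not reported here; LNPEP, PSMB8, NLRC5 and the class II genes at 0 were named after their values were seen. Of 57134 genes, 57079 matched GENCODE v29 (GRCh38) names, which supplied coordinates, GC content, lengths and sequence. Ribosomal counts are those of 547 rRNA genes and pseudogenes and of non-coding genes inside 18S rRNA.

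Mini-bulk libraries were compared over all genes in edgeR 4.0.16 under R 4.3.3 (quasi-likelihood test, TMM scaling, filterByExpr, no replicate term), and p-values were adjusted by Benjamini-Hochberg with a threshold of 0.05. DASHed libraries had TMM factors of 1.96 and 2.09, untreated ones 0.442 and 0.553. The GC correction subtracts a smooth curve (6 degrees of freedom) on GC content per library. The curve is fitted to each gene's deviation in log2 CPM from its mean over the mini-bulk libraries, DASHed and untreated together. Single cells carried no test. Their ratio was taken from summed CPM (for log2 values, 1 CPM was added, in the genes' median too), relative to the median of 13469 genes with at least 20 counts. Intervals are exact, at 95%, from the Clopper-Pearson bounds of the share of counts. Same-numbered single cells were taken as paired from the data alone (correlations 0.91 to 0.92). Alternatives were other scalings (RLE, total counts, rRNA left out), no filter, DESeq2 1.42.0, thinning, GC corrections, a replicate block and leaving out each library. Leaving out a library kept the same-numbered library of the other group. A GC correction by the longest transcript was added after seeing the data.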

Additional observations from a re-analysis of the deposited data

Results flagged for a closer look

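TAP2 in DASHed single cell 3 stood far above the other 3 DASHed cells, at 153.2 CPM outside rRNA against 0, 9.8 and 24.7. The untreated cell of the same number was also the highest of its group, at 184.5. Each gene was examined in both groups of 4 cells, 18 sets in all, and chance flags about 1 in 20 sets.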

How the results depend on the processing

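Of 126 values of the 9 genes in mini-bulk under alternatives, 83 kept direction and side of the threshold, 29 kept direction only and 14 changed direction; the causes were not tested. Scaled to total counts, which moved the median of all genes to 2.04, the log2 fold change was 0.54 for B2M, 1.82 for HLA-B and 1.70 for TAP2. On that scale 7 members were called higher and 0 lower, against 6718 and 138 of all 10083 genes tested. The median of the 9 was then 2.49. With GC correction B2M had 0.16 and HLA-C −0.0754, 0 were called higher and 0 lower (1 lower, PDIA3, at an unadjusted p under 0.05), and the median was 0.11; by the longest transcript HLA-C had −0.12 and TAP1 −0.12, again 0 and 0 (likewise 1 lower unadjusted), median −0.0901. Thinned to equal totals, HLA-E had −0.0176, 0 were called higher (0 also unadjusted), and the median, which HLA-E sets, was −0.0176. Over the 5924 genes tested in the thinned fit, 295 were called higher and 1036 lower. The median was 0.57 with RLE, 0.58 with rRNA left out, 0.53 with no filter and 0.66 with DESeq2, which called CALR and TAPBP higher and 1 gene lower (PDIA3; B2M adjusted p = 0.116, HLA-C 0.07). With no filter CALR and TAPBP were called higher and HLA-C (edgeR adjusted p = 0.0558) was not. Over all genes DESeq2 called 790 higher and 1070 lower, and edgeR with no filter 1165 higher and 2412 lower. Without each mini-bulk library in turn, where a lone library is assumed to vary like the other group, 0 to 3 were called higher and 1 to 2 lower, the median was −0.12 to 0.37, and the fold change ranged from −0.50 to 0.27 for HLA-B, from −0.12 to 1.10 for TAP1 and from −0.89 to 0.26 for TAP2.

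The labels do not say what the mini-bulk numbers mark either. Deviations of same-numbered mini-bulk libraries correlated at 0.44 over 8918 genes, in 2 pairs. With 2 libraries a group, centring by itself makes the value for different numbers the negative of this, −0.44. With a replicate block 4 genes were called higher (CALR, HLA-C, HLA-E and TAPBP) and 2 lower, and calls over all genes went to 2359 higher and 3044 lower. With replicate block and GC correction B2M had 0.15 and HLA-C −0.0756, 0 were called higher (0 also unadjusted) and 2 lower (PDIA3 and TAP2), and the median was 0.0808. Over all genes that fit called 834 higher and 800 lower. Averaged over same-numbered libraries, the ratio of B2M per heavy chain was 0.237 for mini-bulk and 0.311 for single cells.

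Of 117 single-cell values under alternatives, 54 moved by less than the counting interval and 63 by more, with 0 reversals of a value past the fold of 2. The single-cell median log2 ratio of the 9 genes, 0.46 in the report, was 1.60 with no median taken off, 0.28 with no pseudocount, 0.14 against the genes around each in expression, 0.84 as a mean over same-numbered pairs (replicate block) and 0.17 to 1.10 without each cell. B2M per heavy chain in single cells ranged from 0.200 to 0.588 without each cell. TAP1 had 0 to 7 counts a library in single cells, so its ratio there is imprecise.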

Other observations

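MICB, a stress-induced ligand of natural killer cells, had a log2 fold change of 0.26 (edgeR adjusted p = 0.665). Of 10 other class I heavy chain genes 3 were tested and 0 were called, with a median of 0.26. This count was 0 by edgeR and by DESeq2, and at an unadjusted p under 0.05 it was 0 by edgeR and 1 by DESeq2 (HLA-H).

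Across the 12 libraries, the genes whose log2(CPM outside rRNA + 1) followed B2M most closely among 1787 genes were FNBP4 (Pearson's r = 0.926), RPL30 (0.924), EWSR1 (0.916), PTPN11 (0.916) and HIF1AN (0.911). For HLA-B they were CKAP4 (0.939), DDI2 (0.883), PDE12 (0.879), LDLRAD3 (0.873) and PDLIM7 (0.849). These are descriptions over libraries that fall into 4 groups and share cell numbers. CKAP4 had 95.5, 245, 460 and 85.8 CPM outside rRNA in DASHed cells 1 to 4, against 116, 226, 356 and 74.7 in untreated cells, with cell 3 highest and cell 4 lowest as for HLA-B.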
